A study of Mus musculus with 10 samples.

Results

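The cell cycle and mitosis genes described here are 45 genes of the mouse, found by symbol in a table of read counts for 56748 genes, all 45 with a row of their own. They were sorted by the phase in which their products act, with 14 genes of G1 and its exit into S phase, 10 of DNA replication and 21 of G2 and mitosis. Counts came from 10 liver libraries, 5 from mice with the genotype ACSS2-HKO (HKO), in which Acss2 was deleted in liver cells per the study's design text, and 5 from mice with the genotype ACSS2-flox (flox), the floxed controls. Both groups had the high fat, high fructose diet for 4 months, so no group on ordinary chow enters the comparison. The study asks what ACSS2, which makes acetyl-CoA from acetate, does in metabolic dysfunction-associated steatohepatitis. No source used here gives the promoter that drove the recombinase, the age or the strain of the mice. All 10 libraries held Y-linked transcripts, with 1292 to 1991 counts of Ddx3y and at most 11 of Xist.

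The targeted gene itself, Acss2, ran from 40.2 to 59.0 CPM (a gene's counts divided by the library total as scaled by TMM) in HKO and from 56.5 to 128.8 CPM in flox, with a mean of 49.4 ± 7.46 CPM in HKO and of 80.8 ± 29.5 CPM in flox (SD, n = 5 each). Its log2 fold change, HKO over flox, was -0.71 ± 0.21 (SE), the groups overlapped, and Acss2 was not called by edgeR (adjusted p = 0.0858) but was by DESeq2 (adjusted p = 0.0346). No source used here says which exons were deleted, and the counts cover the whole gene. Library totals ran from 15413648 to 19275358 counts in HKO and from 16933436 to 17196774 in flox.

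A cell enters the cycle when D-type cyclins with CDK4 and CDK6, and then cyclin E with CDK2, release E2F transcription factors from the retinoblastoma proteins. E2F then drives genes for the MCM helicase, for the sliding clamp and for nucleotide supply. Genes of G2 and mitosis are switched on later, by the MuvB complex together with B-MYB and FOXM1, through a promoter element called the cell cycle genes homology region (CHR) and nearby CCAAT boxes. Most hepatocytes of the adult liver rest outside the cycle, and many of them are polyploid, a state to which the repressors E2F7 and E2F8 contribute. Resident macrophages, endothelial cells and infiltrating leukocytes of the liver can also divide.

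Promoters of 4 mitotic genes that were lower in HKO, and of E2f8, which was higher, are shown to place these elements. RefSeq promoters on GRCm38.p6, from 250 bases before to 50 bases after the start, were found for 36 of the 45 genes. Entries were not found for Aurkb, Ccna2, Ccnd1, Ccnd2, Ccne2, Foxm1, Kif20a, Mcm4 and Tpx2. Each sequence is printed 5′ to 3′ on the strand of its gene, and capitals mark TTTGAA (the CHR), CCAAT, and the E2F site TTTGGCGC with its variants TTTGCCGC, TTTCGCGC and TTTCCCGC, on either strand. The 5 windows lie at chr7:135716330-135716629, chr11:99024140-99024439, chr4:118437294-118437593, chr13:100786437-100786736 and chr7:48881547-48881846, all on the minus strand.
Mki67: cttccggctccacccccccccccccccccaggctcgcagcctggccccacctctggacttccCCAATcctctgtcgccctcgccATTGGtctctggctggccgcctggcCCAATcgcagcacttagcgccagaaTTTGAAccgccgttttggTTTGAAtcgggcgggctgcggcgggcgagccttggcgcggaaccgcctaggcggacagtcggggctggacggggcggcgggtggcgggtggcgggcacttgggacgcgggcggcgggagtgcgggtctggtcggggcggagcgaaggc
Top2a: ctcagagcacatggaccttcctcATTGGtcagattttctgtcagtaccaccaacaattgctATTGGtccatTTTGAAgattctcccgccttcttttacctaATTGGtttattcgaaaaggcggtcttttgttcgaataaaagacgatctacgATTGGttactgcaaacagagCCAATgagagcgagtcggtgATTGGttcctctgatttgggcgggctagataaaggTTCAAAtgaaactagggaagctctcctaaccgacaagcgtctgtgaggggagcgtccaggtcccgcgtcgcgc
Cdc20: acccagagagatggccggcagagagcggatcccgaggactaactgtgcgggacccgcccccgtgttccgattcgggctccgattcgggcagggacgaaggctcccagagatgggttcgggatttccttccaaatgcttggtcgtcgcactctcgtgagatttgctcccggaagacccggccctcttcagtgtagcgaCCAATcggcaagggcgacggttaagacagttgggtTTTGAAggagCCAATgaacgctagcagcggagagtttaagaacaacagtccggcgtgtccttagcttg
Ccnb1: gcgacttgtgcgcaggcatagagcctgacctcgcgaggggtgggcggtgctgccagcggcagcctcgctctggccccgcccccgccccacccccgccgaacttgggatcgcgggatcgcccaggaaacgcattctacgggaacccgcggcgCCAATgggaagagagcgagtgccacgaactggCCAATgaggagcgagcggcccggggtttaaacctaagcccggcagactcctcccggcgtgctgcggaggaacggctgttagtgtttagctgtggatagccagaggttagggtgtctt
E2f8: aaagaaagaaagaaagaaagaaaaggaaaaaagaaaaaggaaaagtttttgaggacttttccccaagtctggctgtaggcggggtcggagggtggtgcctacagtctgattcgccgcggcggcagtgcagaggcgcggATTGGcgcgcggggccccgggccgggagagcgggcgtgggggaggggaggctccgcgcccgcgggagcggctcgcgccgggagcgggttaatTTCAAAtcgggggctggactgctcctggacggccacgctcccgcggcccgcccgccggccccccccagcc

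In these windows Mki67 held 2 CHR and 3 CCAAT matches, Top2a 2 and 6, and Cdc20 1 and 2, while Ccnb1 held 2 CCAAT and no TTTGAA match. TTTGAA was the only spelling of the CHR searched, so this does not show that Ccnb1 lacks a CHR. The E2f8 window held 1 CHR and 1 CCAAT match. The Cenpe promoter, not shown, held CCAAT and no TTTGAA match. Some genes had more than 1 promoter entry. Of 17 promoters of 16 G2 and mitosis genes, 12 held TTTGAA (70.6%), against 17.9% of all 32851 promoters in the table. The share was 1 of 10 promoters of 9 replication genes and 2 of 15 promoters of 11 G1 and S entry genes. The E2F letters were in 4 of the 10 replication promoters (40%), in 2 of the 15 of G1 and S entry (13.3%), in 1 of the 17 of G2 and mitosis (5.88%) and in 2.26% of all. CCAAT was in 15 of 17 promoters of G2 and mitosis, 9 of 10 of replication and 7 of 15 of G1 and S entry (46.7%), against 37.4% of all promoters. A match describes letters in a window and does not show that a factor binds there.

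Several transcripts of mitosis were lower in HKO livers, and those of G1 mostly were not called. Of the 45 genes, 41 passed the filter on low counts, which asks for about 10 counts in 5 libraries, and were tested with all other genes by the quasi-likelihood test of edgeR. At an adjusted p under 0.05, 7 were lower in HKO (Top2a, Ccnb1, Cdc20, Mki67, Cenpe, E2f2 and Foxm1), 1 was higher (E2f8) and 33 were not called. Across all 14068 genes tested, 3.99% were called, 3.07% lower and 0.917% higher. By phase the genes called lower were 6 of the 17 tested genes of G2 and mitosis, 0 of 10 of replication (5 of them with an unadjusted p under 0.05, as had 16.9% of all tested genes, and 3 called by DESeq2) and 1 of 14 of G1 and S entry. The 4 genes that missed the filter, Aurkb, Bub1, Cenpf and Tpx2, all belong to mitosis. With no filter on low counts all 45 were tested and 12 were called lower, against 2.18% of 28708 genes, the 4 among them, and 1 higher, against 0.745%. DESeq2 called 12 of the 41 lower, against 5.10% of genes, and 1 higher, against 2.16%. Libraries show only the total RNA of a tissue, in which fewer cells of a type and less RNA per cell cannot be told apart.

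**Figure D1:**
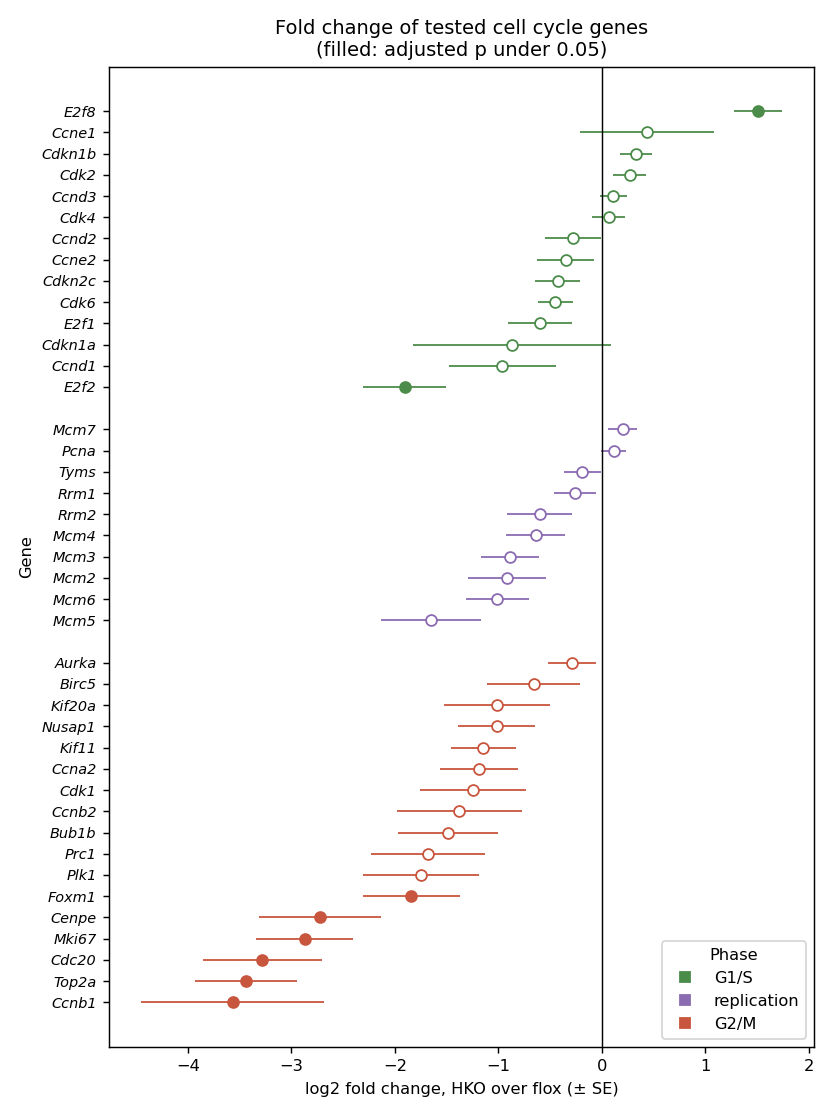
Log2 fold change, HKO over flox, with its standard error for the 41 tested cell cycle genes, grouped by phase, filled where the adjusted p was under 0.05. All 17 tested genes of G2 and mitosis lie left of 0, from -0.29 for Aurka to -3.57 for Ccnb1.

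The tested genes of G2 and mitosis had a median log2 fold change of -1.49, those of replication -0.62 and those of G1 and S entry -0.31, beside 0.008 for all genes tested. With no filter on low counts the median over all 21 genes of G2 and mitosis was -1.74. All 17 of G2 and mitosis had a negative fold change, as did 8 of 10 and 8 of 14 in the other phases, against 49.0% of all tested genes. Together the 21 mitosis genes gave 162 to 347 counts a library in HKO and 519 to 1405 in flox. As summed level they stood at 14.8 ± 4.76 CPM in HKO and 46.7 ± 17.2 CPM in flox (mean ± SD, n = 5 each), and the groups did not overlap. The 10 replication genes summed to 61.3 ± 5.33 CPM in HKO and 70.5 ± 9.82 CPM in flox, and the 14 genes of G1 and S entry to 203.2 ± 21.9 CPM in HKO and 208.1 ± 28.6 CPM in flox, in both cases with overlapping groups.

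**Figure D2:**
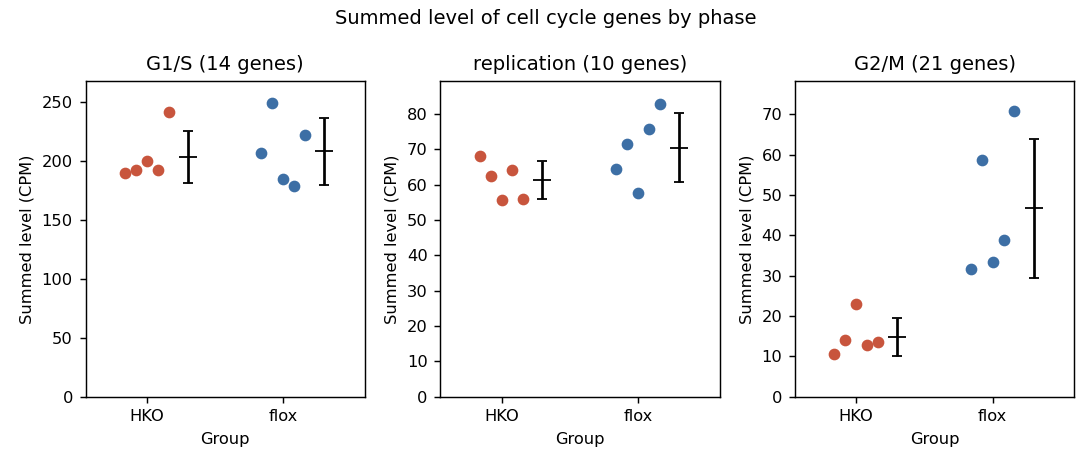
Summed level in CPM of the genes of each phase, HKO left and flox right, 1 point a library, with the mean and SD as bars. In G2 and mitosis the HKO libraries lie between 10.5 and 22.9 CPM and the flox libraries between 31.8 and 70.8 CPM, while the groups overlap in the other phases.

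Among the D-type cyclins and their kinases, which open G1, 0 of 5 genes were called (1 with an unadjusted p under 0.05, and 0 by DESeq2). Ccnd1, the cyclin D1 gene that growth signals induce, read 11.7, 5.80, 2.77, 13.4 and 2.59 CPM in HKO replicates 1 to 5, and 11.7, 15.5, 3.77, 10.6 and 29.0 CPM in flox replicates 1 to 5. The highest library was flox replicate 5, and the groups overlapped widely. The log2 fold change of Ccnd1 was -0.96 ± 0.52 (SE, edgeR adjusted p = 0.382). On the other strand 1771 bases of it are shared with LTO1, whose counts came to 103% of those of Ccnd1. Cdk6 averaged 26.3 ± 6.44 CPM in HKO and 35.9 ± 4.20 CPM in flox (edgeR adjusted p = 0.176). Ccnd2 averaged 3.47 ± 0.875 CPM in HKO and 4.21 ± 1.53 CPM in flox. Ccnd3 and Cdk4 had log2 fold changes of 0.11 ± 0.13 and 0.07 ± 0.16 (-0.048 for Cdk4 with library totals alone), and Cdk4 overlaps Tspan31, whose counts came to 608% of its own.

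None of the genes of cyclin E and CDK2, which push the cell into S phase, was called (0 of 3, with 0 at an unadjusted p under 0.05 and 0 by DESeq2). Ccne1 ran from 0.110 to 1.99 CPM in HKO and from 0.218 to 1.83 CPM in flox, and Ccne2 averaged 2.04 ± 0.641 CPM in HKO and 2.59 ± 0.583 CPM in flox. Cdk2 had a log2 fold change of 0.27 ± 0.16.

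Cdkn1a, which encodes the CDK inhibitor p21 and is a target of p53, varied widely within both groups. It read 1.88, 1.51, 10.6, 4.76 and 79.4 CPM in HKO replicates 1 to 5, and 47.6, 79.1, 16.3, 2.81 and 35.0 CPM in flox replicates 1 to 5. The highest HKO library and the highest flox library were at nearly the same level, and flox replicate 4 lay among the low HKO libraries. The log2 fold change was -0.87 ± 0.96 (edgeR adjusted p = 0.711), and it moved with single libraries. Without HKO replicate 5 it was -2.94 (edgeR adjusted p = 0.0670), and without flox replicate 2 it was -0.37 (edgeR adjusted p = 0.929). Cdkn1b, the gene of p27, averaged 31.5 ± 5.81 CPM in HKO and 25.1 ± 3.77 CPM in flox (edgeR adjusted p = 0.306). Cdkn2c, the gene of p18, averaged 4.03 ± 1.01 CPM in HKO and 5.42 ± 0.753 CPM in flox (edgeR adjusted p = 0.350).

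The E2F genes split. E2f8 (ENSMUSG00000046179, on chromosome 7), an atypical E2F that represses other E2F targets and is itself made in S phase, was the only one of the 45 called higher. It read 29.0, 19.2, 35.1, 40.0 and 25.6 CPM in HKO replicates 1 to 5, and 11.2, 7.19, 13.2, 7.28 and 13.4 CPM in flox replicates 1 to 5. Every HKO library stood above every flox library, as in 1.91% of all tested genes. The rise was 2.84-fold, or 1.51 ± 0.23 in log2 fold change (edgeR adjusted p = 0.00603), and an exact two-sided permutation test over the assignments of 5 and 5 libraries gave p = 0.00794, the smallest it allows. E2f2, an activating E2F, had the reverse pattern on far fewer counts. It read 0.194, 0.378, 0.198, 0.514 and 0.276 CPM in HKO replicates 1 to 5, and 0.673, 1.34, 0.764, 1.55 and 1.61 CPM in flox replicates 1 to 5. The E2f2 groups did not overlap, with -1.91 ± 0.41 as log2 fold change (edgeR adjusted p = 0.0196) that missed the threshold without HKO replicates 1 or 5 (0.0542 and 0.0532). E2f1, the best known activator, averaged 1.87 ± 0.539 CPM in HKO and 2.84 ± 0.944 CPM in flox (edgeR adjusted p = 0.355).

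E2f8 shares 3689 of its 15168 bases with Gm2788, a long non-coding RNA gene on the opposite strand whose counts came to 322% of those of E2f8. No source used here says whether counting used strand, so their reads cannot be told apart where they overlap. Gm2788, chosen after its values were seen, averaged 79.1 ± 19.5 CPM in HKO and 48.7 ± 13.3 CPM in flox (log2 fold change 0.70 ± 0.20, edgeR adjusted p = 0.0780). The ratio of E2f8 counts to Gm2788 counts was 0.259, 0.303, 0.467, 0.505 and 0.390 in HKO replicates 1 to 5, and 0.230, 0.184, 0.194, 0.213 and 0.251 in flox replicates 1 to 5. The lowest HKO ratio, 0.259 in replicate 1, lay close to the highest flox ratio, 0.251 in replicate 5. The part of Gm2788 reads in the E2f8 counts was not tested. E2f7, the partner of E2f8 in repression, was near the filter, at 0.729 ± 0.312 CPM in HKO and 0.513 ± 0.223 CPM in flox (edgeR adjusted p = 0.603).

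Of the 6 MCM genes, which encode the ring helicase that unwinds DNA, 5 had a negative fold change and an unadjusted p under 0.05, and 0 were called over all genes (DESeq2 called Mcm3, Mcm5 and Mcm6). Mcm5 (ENSMUSG00000005410) had the smallest p of the replication genes. It read 0.972, 0.819, 0.463, 0.643 and 0.386 CPM in HKO replicates 1 to 5, and 1.04, 2.19, 0.819, 1.49 and 4.74 CPM in flox replicates 1 to 5. The groups met where flox replicate 3 fell among the higher HKO libraries, and flox replicate 5 was far above the others. The log2 fold change of Mcm5 was -1.65 ± 0.49 (edgeR adjusted p = 0.0803). It was called without flox replicate 3 (edgeR adjusted p = 0.0415) and not in the other 9 fits that left out a library, and without flox replicate 5 it was -1.07 (edgeR adjusted p = 0.228). Mcm2 read 3.11, 2.21, 1.45, 2.38 and 0.882 CPM in HKO replicates 1 to 5, and 2.51, 5.36, 2.13, 2.98 and 5.94 CPM in flox replicates 1 to 5, so that the groups overlapped (edgeR adjusted p = 0.219). Mcm3, Mcm4 and Mcm6 had log2 fold changes of -0.89, -0.64 and -1.01. Mcm7 alone of the 6 had a positive fold change, at 13.3 ± 1.14 CPM in HKO and 11.6 ± 1.26 CPM in flox (edgeR adjusted p = 0.505), and its gene overlaps Cops6 and Ap4m1, whose counts came to 561% and 79.9% of its own.

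Pcna, the gene of the sliding clamp that holds DNA polymerase in place, was not called. It read 23.7, 22.7, 20.9, 22.2 and 21.4 CPM in HKO replicates 1 to 5, and 21.6, 18.5, 19.8, 24.3 and 18.2 CPM in flox replicates 1 to 5, with 0.12 ± 0.12 as log2 fold change (edgeR adjusted p = 0.693). Rrm1 and Rrm2, the subunits of ribonucleotide reductase, had log2 fold changes of -0.26 ± 0.21 and -0.60 ± 0.31, and Tyms, thymidylate synthase, -0.19 ± 0.18. None of these 4 genes was called, none had an unadjusted p under 0.05 and DESeq2 called none.

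Mki67 and Top2a, which act on chromosomes and are standard markers of dividing cells, had the most counts of the genes that fell. Mki67 (ENSMUSG00000031004, on chromosome 7) encodes Ki-67, which coats mitotic chromosomes. It read 0.454, 0.630, 3.17, 0.643 and 1.05 CPM in HKO replicates 1 to 5, and 5.26, 9.62, 6.44, 8.54 and 13.6 CPM in flox replicates 1 to 5. Replicate 3 was the highest HKO library, and still lay under the lowest flox library. Mki67 fell 7.31-fold, or -2.87 ± 0.47 in log2 fold change (edgeR adjusted p = 0.00745), resting on 94 counts in HKO and 781 in flox. With 1 library left out, it ran from -2.65 (without flox replicate 5) to -3.62 (without HKO replicate 3, or 12.3-fold). Top2a (ENSMUSG00000020914, on chromosome 11) encodes the topoisomerase that untangles sister chromatids. It read 0.324, 0.126, 0.925, 0.321 and 0.331 CPM in HKO replicates 1 to 5, and 2.63, 3.90, 3.17, 3.15 and 9.22 CPM in flox replicates 1 to 5. Flox replicate 5 was high, and without it the log2 fold change of Top2a shrank to -2.97. The Top2a difference was still called there, as it was in all 17 alternatives tried. Top2a fell 10.8-fold, or -3.44 ± 0.49 in log2 fold change (edgeR adjusted p = 0.00381), on 32 counts in HKO and 403 in flox. For Mki67, Top2a and 5 other genes every HKO library lay below every flox library, against 3.46% of all tested genes. Full separation of 5 and 5 libraries fixes the exact permutation p at 0.00794, so that p adds nothing to the separation. All of these genes had fewer than 5 HKO libraries at the filter level, which favours separation, so their number is a description.

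**Figure D3:**
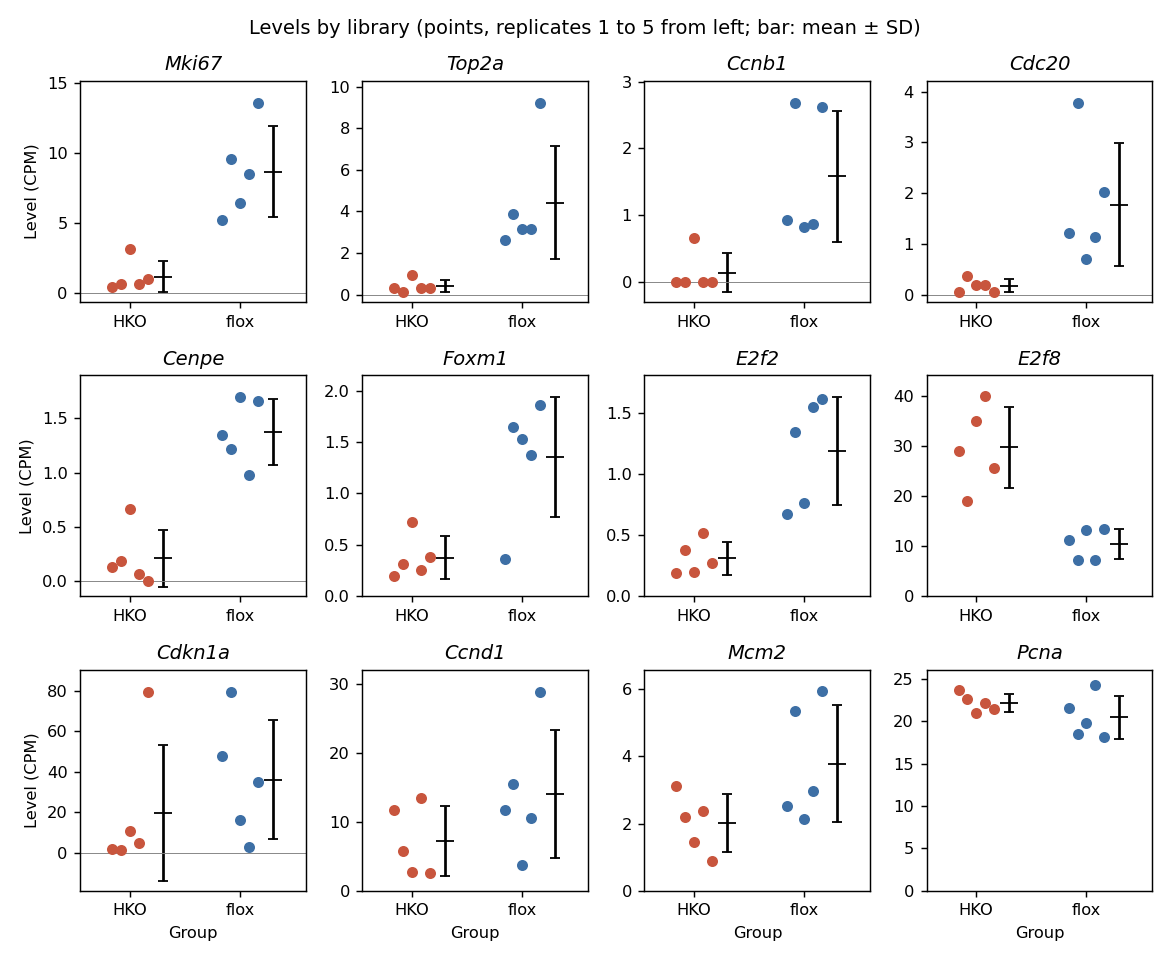
Level in CPM of 12 cell cycle genes, HKO left and flox right, 1 point a library, with the mean and SD as bars. The groups separate for Mki67, Top2a, Ccnb1, Cdc20, Cenpe, E2f2 and E2f8, and overlap for Foxm1, Cdkn1a, Ccnd1, Mcm2 and Pcna.

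Of the cyclins that drive entry into mitosis, with CDK1 and FOXM1, 2 of 5 genes fell. Ccnb1 (ENSMUSG00000041431), the gene of cyclin B1, read 0, 0, 0.661, 0 and 0 CPM in HKO replicates 1 to 5, and 0.918, 2.68, 0.819, 0.859 and 2.62 CPM in flox replicates 1 to 5. All 10 HKO counts came from replicate 3, whereas flox held 141, and a count of 0 allows up to 0.165 to 0.194 CPM (3 counts) in those 4 libraries. The log2 fold change of Ccnb1 was -3.57 ± 0.88 (edgeR adjusted p = 0.0368), a value set by those 10 counts: without HKO replicate 3 HKO held 0, and the fitted -7.76 (edgeR adjusted p = 0.00587) then depends on the prior count and is no bound. In addition, 2 pseudogene copies of it had 8 and 7 counts of their own. The call was lost in DESeq2 (adjusted p = 0.107), with the replicate number as a block (edgeR adjusted p = 0.0577) and without HKO replicates 1, 2, 4 or 5 or flox replicates 2 or 5 (edgeR adjusted p from 0.0831 to 0.0907). Foxm1, which activates many mitotic genes, read 0.194, 0.315, 0.727, 0.257 and 0.386 CPM in HKO replicates 1 to 5, and 0.367, 1.64, 1.53, 1.38 and 1.86 CPM in flox replicates 1 to 5. Flox replicate 1 lay within the HKO range, and the other flox libraries lay above it. Its log2 fold change was -1.84 ± 0.46 (edgeR adjusted p = 0.0410), which missed the threshold when any 1 of 8 libraries was left out (flox replicates 2 to 5 and HKO replicates 1, 2, 4 and 5, edgeR adjusted p from 0.0636 to 0.105).

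Cdk1, the kinase of mitotic entry, read 0.583, 0.882, 0.793, 1.41 and 0.221 CPM in HKO replicates 1 to 5, and 0.612, 2.98, 0.928, 1.55 and 3.12 CPM in flox replicates 1 to 5. Flox replicates 2 and 5 stood apart from the rest, flox replicate 4 lay just above the HKO range, and flox replicates 1 and 3 lay within it (log2 fold change -1.25 ± 0.51, edgeR adjusted p = 0.226). Ccna2, of cyclin A2, and Ccnb2, of cyclin B2, had log2 fold changes of -1.19 ± 0.37 and -1.38 ± 0.60 (edgeR adjusted p = 0.102 and 0.263). Ccnb2 in HKO replicate 3, at 2.05 CPM, lay above 3 of the 5 flox libraries.

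Among mitotic kinases and checkpoint genes, Cdc20 was called. Cdc20 (ENSMUSG00000006398) encodes the activator of the anaphase-promoting complex, which ends mitosis by marking cyclin B for destruction. It read 0.0648, 0.378, 0.198, 0.193 and 0.0551 CPM in HKO replicates 1 to 5, and 1.22, 3.78, 0.710, 1.15 and 2.02 CPM in flox replicates 1 to 5. No HKO library reached any flox library, on 14 counts in HKO and 155 in flox. Cdc20 fell 9.70-fold, or -3.28 ± 0.58 in log2 fold change (edgeR adjusted p = 0.0103), and it was called in all 16 alternatives in which it was tested. Its neighbour Elovl1, with which it shares 53 bases, fell too (log2 fold change -0.54, edgeR adjusted p = 0.0296).

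Plk1 and Bub1b, a mitotic kinase and a checkpoint gene, had log2 fold changes of -1.75 ± 0.56 and -1.49 ± 0.48 without passing (edgeR adjusted p = 0.108 and 0.113). Bub1, another checkpoint kinase, had 7 counts in HKO and 65 in flox, and Aurkb, the kinase of the chromosomal passenger complex, 20 in HKO and 95 in flox. With no filter on low counts Bub1 had an edgeR adjusted p of 0.00808 and Aurkb of 0.0416. Aurka, the kinase of spindle poles, was the closest to no difference, at 2.82 ± 0.483 CPM in HKO and 3.45 ± 0.715 CPM in flox (edgeR adjusted p = 0.581). Birc5, which encodes survivin, averaged 1.70 ± 0.996 CPM in HKO and 2.69 ± 0.644 CPM in flox, and HKO replicate 4 held 0.193 CPM while the other HKO libraries held 1.17 to 2.46.

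Of the genes for spindle, kinetochore and cytokinesis, Cenpe was called. Cenpe (ENSMUSG00000045328), a motor that moves chromosomes to the spindle equator, read 0.130, 0.189, 0.661, 0.0643 and 0 CPM in HKO replicates 1 to 5, and 1.35, 1.22, 1.69, 0.974 and 1.66 CPM in flox replicates 1 to 5. All flox libraries were above all HKO libraries, with replicate 3 again the highest of HKO. Cenpe fell 6.60-fold, or -2.72 ± 0.59 in log2 fold change (edgeR adjusted p = 0.0215, and 0.0527 to 0.0592 without HKO replicates 1, 2 or 4). Its log2 fold change was -3.79 without HKO replicate 3 (13.8-fold lower) and -2.38 without HKO replicate 5. Prc1, which bundles microtubules at cytokinesis, also had groups that did not overlap, at 0.603 ± 0.428 CPM in HKO and 1.94 ± 0.810 CPM in flox, but did not pass (edgeR adjusted p = 0.118). Rccd1, on the opposite strand, covers its whole span. Kif11, a motor that pushes spindle poles apart, came closest of the genes that were not called (log2 fold change -1.15 ± 0.31, edgeR adjusted p = 0.0607). Cenpf had 12 counts in HKO and 112 in flox, and Tpx2, which seeds spindle microtubules, 20 in HKO and 125 in flox. With no filter they had edgeR adjusted p values of 0.00334 and 0.0130. Kif20a and Nusap1 had log2 fold changes of -1.01 and -1.02 that did not pass.

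Counts were few for many of these genes. In 13 of the 45 at least 1 library held under 3 counts, and 12 of these were genes of mitosis. Per kilobase of the gene length listed by the authors, mean flox levels ran from 10.2 CPM for Cdkn1a, the highest, to 0.0813 for Cenpf, the lowest, with Pcna at 8.53, Mki67 at 0.864 and Top2a at 0.490. Overlap with a more abundant gene on the opposite strand also bears on Ccna2, Ccne2 and Kif20a, where Exosc9, Ints8 and Cdc23 had counts of 561%, 785% and 764% of theirs. All 7 genes called lower had fewer than 5 HKO libraries at the filter level of 0.590 CPM before TMM scaling. E2f2 and Cdc20 had no HKO library there, Top2a, Ccnb1, Cenpe and Foxm1 had 1, and Mki67 had 4. All but Mki67 thus passed mainly through flox, the group where they were high. E2f2 and Cdc20, with all 5 flox libraries at that level, had to differ. For the others the filter favoured a difference without fixing it. Of 18 tested genes with fewer than 5 HKO libraries at that level, 7 were called lower. The counts of genes called lower, or with groups that did not overlap, are therefore a description of the genes that passed.

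**Figure D4:**
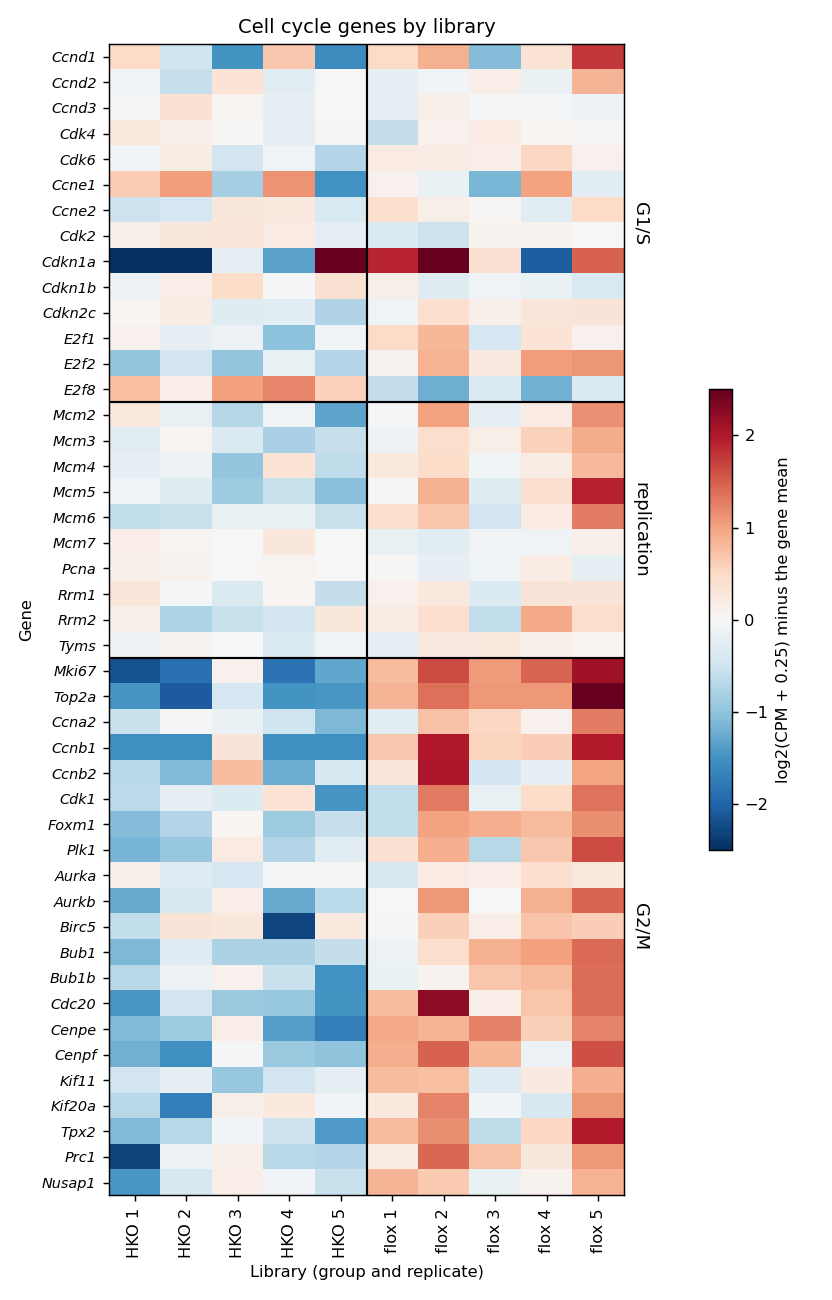
Log2(CPM + 0.25) of each of the 45 genes minus the gene's mean, in red where high and blue where low, capped at 2.5, with HKO libraries left and flox libraries right of the line. Genes of G2 and mitosis are mostly blue in HKO and red in flox, palest in HKO replicate 3 and deepest in flox replicate 5, and Cdkn1a follows neither group.

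Libraries of a group were not alike. Flox replicate 5 was the highest of all 10 libraries for 13 of the 21 genes of mitosis and for 5 of 10 of replication, and HKO replicate 3 was the highest HKO library for 13 of the 21. Without flox replicate 5, 4 genes of mitosis were called lower and their median log2 fold change was -1.32. Without HKO replicate 3, 8 were called lower and the median was -2.03. The count was 3 without HKO replicates 1 or 4, and 4 without HKO replicates 2 or 5 or flox replicate 2, and 8 without flox replicate 3. Mki67, Top2a and E2f8 were called in every one of the 17 alternatives.

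Among 82 other cell cycle genes, 60 were tested, 6 were called lower and 1 higher, beside 3.07% and 0.917% of all tested genes. Lower calls in replication (1 of 21, 4.76%) and in G1 (1 of 20, 5.0%) were near the share of all genes. Of those of mitosis 4 of 19 tested were called lower, and 14 of 34 with no filter on low counts, against 2.18% of all genes. The 4 were Kif23 and Ube2c, for a cytokinesis motor and a ubiquitin enzyme of the anaphase-promoting complex, Aspm, for a spindle pole protein, and Cdc25b, for a phosphatase that activates CDK1. Kif23 averaged 0.404 ± 0.290 CPM in HKO and 2.55 ± 1.33 CPM in flox (log2 fold change -2.65 ± 0.52, edgeR adjusted p = 0.0148). Ube2c averaged 0.502 ± 0.253 CPM in HKO and 1.96 ± 0.880 CPM in flox (log2 fold change -1.96 ± 0.42, edgeR adjusted p = 0.0198). Aspm averaged 0.390 ± 0.286 CPM in HKO and 1.57 ± 0.437 CPM in flox (edgeR adjusted p = 0.0217), and Cdc25b 0.802 ± 0.294 CPM in HKO and 1.86 ± 0.410 CPM in flox (edgeR adjusted p = 0.0492). These 4 genes rested on 32, 40, 31 and 64 counts in HKO and 231, 176, 141 and 166 in flox, in that order. In HKO, Kif23, Ube2c and Aspm reached 10 counts only in replicate 3 (13, 14 and 13), so they passed the filter mainly through flox. The number of tested genes called lower is therefore a description here too. Kif23 held its call in each fit that left out a library. The call of Cdc25b was lost in 9 of those 10 fits and those of Ube2c and Aspm in 3 and 5. In replication, Lig1, the ligase that joins Okazaki fragments, fell (log2 fold change -1.35 ± 0.33, edgeR adjusted p = 0.0335). In G1, Rbl1, for the retinoblastoma relative p107, fell (log2 fold change -1.18 ± 0.30, edgeR adjusted p = 0.0414). The calls of Lig1 and Rbl1 were lost with the replicate block and in 7 and 8 of the fits without a library. On the opposite strand Zswim9 overlaps Lig1 and Spef1 overlaps Cdc25b, with counts of 119% and 109% of theirs.

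Mcm10, which helps load replication proteins, went the other way. It averaged 108.4 ± 27.8 CPM in HKO and 51.0 ± 21.2 CPM in flox (log2 fold change 1.09 ± 0.26, edgeR adjusted p = 0.0293). Flox replicate 4, at 85.6 CPM, lay within the HKO range, and the call was lost when any 1 of 6 libraries was left out (HKO replicates 1, 2 and 4 and flox replicates 1, 2 and 5, edgeR adjusted p from 0.0613 to 0.0763).

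Markers of macrophages, like the genes of mitosis, were lower in HKO, but within groups the order of libraries differed in part. As summed levels, flox replicate 4 exceeded flox replicate 2 for these markers (627.3 against 423.8 CPM) but not for mitosis genes (39.0 against 58.7 CPM). All 12 macrophage markers fell (median log2 fold change -1.69), and their summed level ran from 111.2 to 223.9 CPM in HKO and from 285.1 to 679.7 CPM in flox, with none at 0. Adgre1, which encodes F4/80, averaged 2.81 ± 0.907 CPM in HKO and 12.7 ± 7.10 CPM in flox. HKO replicate 3 and flox replicate 5, the highest library of each group for genes of mitosis, also had the highest summed level of their groups for these markers, and likewise for markers of neutrophils (11.6 and 18.5 CPM), stellate cells (50.6 and 97.1 CPM) and bile duct and progenitor cells (78.7 and 162.3 CPM). Averaged over markers on the log2 scale, flox replicate 4 stood above replicate 5 for macrophages and neutrophils. On that scale HKO replicate 5 stood above replicate 3 for stellate cells and for bile duct and progenitor cells. In flox replicate 5, Spp1 made up 145.5 CPM of the bile duct sum and Col1a1 35.9 CPM of the stellate sum. Endothelial markers had their highest sums in HKO replicate 3 (113.6 CPM) and flox replicate 4 (121.4 CPM). Averaged on the log2 scale, they were highest in HKO replicate 3 and flox replicate 5, as were the genes of mitosis. Red blood cell precursor markers had their lowest sums in HKO replicate 3 and flox replicate 5. Those of T, NK and B cells had their highest in HKO replicate 2 and flox replicate 1. Flox replicate 5 had the lowest summed level of its group for hepatocyte markers, at 77900 CPM. Of the markers of hepatocytes 0 of 10 were called, of T, NK and B cells 0 of 6 tested, of neutrophils 0 of 3, of red blood cell precursors 0 of 6, of stellate cells 0 of 6 and of bile duct and progenitor cells 0 of 5 by edgeR (1, 0, 2, 0, 2 and 0 with an unadjusted p under 0.05, in that order). DESeq2 called 1 hepatocyte marker higher and 1 neutrophil marker lower, and 0 of the other 4 lists. Of 6 endothelial markers 1 fell, Cdh5. The part of any of these cells in the fall of the mitosis genes was not tested.

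**Figure D5:**
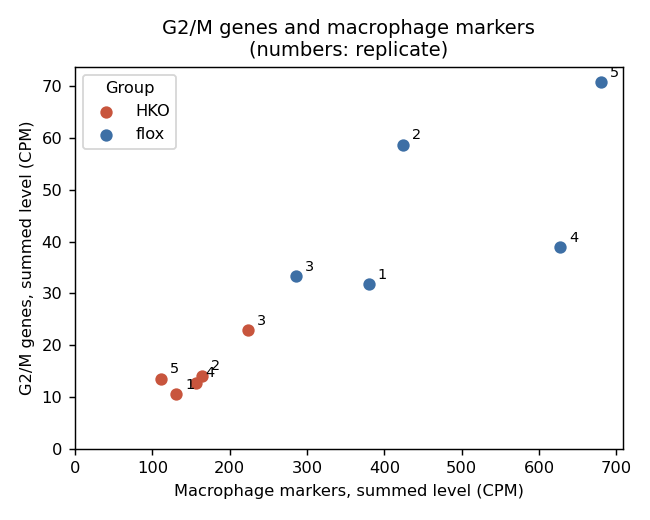
Summed level in CPM of the 21 genes of G2 and mitosis against that of 12 macrophage markers, 1 point a library, numbered by replicate. The 5 HKO libraries lie lower on both axes than the 5 flox libraries, with HKO replicate 3 and flox replicate 5 the highest of their groups on both.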

How the data were processed

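Libraries were made from total RNA of mouse liver (VAHTS Universal V6 chemistry, per the labels). Raw counts of reads per gene were deposited by the authors. As tools the submitters' processing notes list DESeq2, and as build mm10. Aligner, counter, annotation and strand use are stated in no source used here. Nothing says that samples came from separate animals, so p-values measure the spread between these samples.

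HKO and flox counts were tested with edgeR 4.0.16 in R 4.3.3 (quasi-likelihood, two-sided), using filterByExpr by group, TMM scaling and Benjamini-Hochberg adjustment over 14068 genes at 0.05. An "edgeR adjusted p" comes from this fit. Each SE was taken as |log2 fold change| divided by √F. CPM values are TMM-scaled. DESeq2 1.42.0 was an alternative. Single genes were also compared by exact two-sided permutation tests of log2 CPM (prior count 2), unadjusted. The floor of 3 counts covers counting error only.

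The genes, lists and tests were chosen with earlier results of these data known. Every gene of the list is accounted for; values in every library are given for genes called, for 8 preset genes and for the replication gene of smallest p. On simulated counts the fit was checked against planted changes. No 2 libraries of a group agreed within sampling noise (smallest chi-square per degree of freedom 24.6). Of the 45 genes, 3 (Ccnb1, Mcm7 and Pcna) had a copy with 95% identity over at least 50% of a GENCODE M21 transcript, and 11 overlapped a gene with at least 10% as many counts.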

Additional observations from a re-analysis of the deposited data

Results flagged for a closer look

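The 45 genes in HKO and in flox gave 90 groups of 5 libraries. In these, 11 values lay farther from the rest of their group than Dixon's test allows at its 95% level. For normal values chance gives this in about 1 of 20 groups. CPM of genes with few counts are not normal, so that rate need not hold here. Genes of the same library also do not vary independently. Of the 11, 6 were the high value of HKO replicate 3 among genes of mitosis. There Mki67 read 3.17 CPM against at most 1.05 in the other HKO libraries, and Top2a 0.925 against at most 0.331. Ccnb1 read 0.661 CPM there against 0 in the other 4. Ccnb2 read 2.05 CPM against at most 0.772, Cenpe 0.661 against at most 0.189, and Cenpf 0.463 against at most 0.129. HKO replicate 3 also had the highest summed macrophage markers of its group, at 223.9 CPM.

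Flox replicate 5 was high for Top2a, at 9.22 CPM against at most 3.90 in the other flox libraries, and for Ccnd2, at 6.85 CPM against at most 4.20. HKO replicate 5 held 79.4 CPM of Cdkn1a, against 1.51 to 10.6 CPM in the other HKO libraries. Flox replicate 4 held 43.3 CPM of Cdk6 against at most 34.9, and flox replicate 1 held 17.8 CPM of Cdk4 against at least 27.5.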

How the results depend on the processing

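Mki67, Top2a and E2f8 were called in all 17 alternatives, with log2 fold changes from -3.62 to -2.65, from -3.96 to -2.97 and from 1.37 to 1.63. DESeq2 called 12 of the 41 tested genes lower (3 of replication), and 3 and 8 of the other replication and mitosis genes. Over all genes it called 717 lower (5.10%) and 304 higher (2.16%). With no filter on low counts 12 were lower (10 of mitosis, 1 of replication), with 3 and 14 of the other replication and mitosis genes, and 214 genes higher overall. A filter of 1 CPM in 5 libraries tested fewer of the genes (31) and left 3 lower, 3 of mitosis and 0 of G1 and S entry. With library totals alone the median of all genes shifted to -0.10 and that of G1 and S entry genes to -0.44, Cdk4 turned to -0.048, and 2 other replication genes were lower, as with robust dispersion. Without 1 library Cdk4 ran from -0.05 (without flox replicate 1) to 0.134.

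Replicate numbers did not pair the libraries (correlations of deviations from -0.12 to 0.24). With the replicate number as a block 6 of the 41 tested genes were lower, and 0 of the other G1 and 0 of the other replication genes.

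Leaving out 1 library gave 3 to 11 genes lower and 1 higher, 3 to 8 of mitosis, 0 to 2 of replication, and 0 to 1 of G1 lower and 1 higher. Medians ran from -1.06 to -0.69 over all, from -2.03 to -1.32 in mitosis, from -0.76 to -0.51 in replication and from -0.39 to -0.14 in G1. Of the other genes 2 to 9 of mitosis, 0 to 1 of replication and 0 to 1 of G1 were lower, and 0 to 1 of replication and 0 of the rest higher. Over all genes 220 to 522 were lower and 69 to 160 higher. The causes of these shifts were not tested. Depth limits the mitosis genes most, since 5 of the 45 had a library with 0 counts.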
